A study of Homo sapiens with 2 samples.

Results

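The genes described here are the 10 that sit directly upstream of the transcription factor ATF4 in the integrated stress response: the eIF2 kinases EIF2AK1, EIF2AK2, EIF2AK3 and EIF2AK4, the GCN2 regulators GCN1 and IMPACT, the phosphatase regulators PPP1R15A and PPP1R15B, and the eIF2 subunits EIF2S1 and EIF2S2. They were listed by symbol, with earlier results of these data known and with no measured value in the rule, and were found through the RefSeq accessions of the array probes. All 10 were found, with 14 of the 41000 probes, among 17240 genes that could be named on the arrays. SKOV3 is a human ovarian adenocarcinoma cell line, and 2 RNAs of it were compared. The first came from cl-sh3, the RUNX2 knockdown clone 3, which carries a short hairpin RNA (shRNA) against RUNX2 in the lentiviral vector pLKO.1-puro. The second came from a mock-transfected control clone with a scrambled sequence in the same vector. Both clones were infected with lentivirus and selected with puromycin, and each group is 1 clone, so a difference between the groups is also a difference between those clones.

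Each clone's RNA was labelled with Cy3 and with Cy5 and hybridized with the other clone's RNA on Agilent whole human genome arrays. The dye of cl-sh3 was Cy5 in hybridization 1 and Cy3 in hybridization 2, the dye swap. Both hybridizations used the same RNAs on 1 slide and count as 1 replicate. There is therefore no test between the clones and no p-value, and the gap between the hybridizations shows technical error only. Values are the log2 ratio of cl-sh3 over control, so that 1 is a 2-fold higher and -1 a 2-fold lower signal in cl-sh3.

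Phosphorylation of the eIF2 alpha subunit lowers general translation initiation while letting ATF4 mRNA be translated. Each of the kinases answers to another stress: EIF2AK1 (HRI) to haem shortage and mitochondrial stress, EIF2AK2 (PKR) to double-stranded RNA, EIF2AK3 (PERK) to unfolded proteins in the endoplasmic reticulum, and EIF2AK4 (GCN2) to amino acid shortage. PPP1R15A (GADD34) and PPP1R15B (CReP) bring protein phosphatase 1 to eIF2 and so reverse the mark. The arrays read mRNA levels and neither kinase activity nor the phosphorylation of eIF2.

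Promoter sequences are shown for the members whose start region held 1 of 4 motifs that bear on the groups compared below: the RUNX motif, because RUNX2 was the gene knocked down, and motifs of interferon-induced and ATF4-related promoters. They are RefSeq sequences of the build GRCh38.p14, which gave a promoter for 8 of the 10 members, and run 5′ to 3′ on the strand of the gene with the motif in capitals. The EIF2AK2 sequence (chr2:37156977-37157130, minus strand) runs from 150 bases before to 4 bases past the transcription start. The other sequences hold the 250 bases before the start, for IMPACT at chr18:24426420-24426669 (plus strand), for PPP1R15A at chr19:48872171-48872420 (plus strand) and for PPP1R15B at chr1:204411818-204412067 (minus strand).
EIF2AK2: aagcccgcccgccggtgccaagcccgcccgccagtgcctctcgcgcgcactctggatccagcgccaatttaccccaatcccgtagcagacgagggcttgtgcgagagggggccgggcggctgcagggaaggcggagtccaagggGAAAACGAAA
IMPACT: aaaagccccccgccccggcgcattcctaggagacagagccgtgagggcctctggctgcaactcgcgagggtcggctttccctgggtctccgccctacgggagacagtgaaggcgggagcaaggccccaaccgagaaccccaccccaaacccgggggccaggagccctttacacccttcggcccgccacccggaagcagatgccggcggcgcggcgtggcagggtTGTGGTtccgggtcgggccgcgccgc
PPP1R15A: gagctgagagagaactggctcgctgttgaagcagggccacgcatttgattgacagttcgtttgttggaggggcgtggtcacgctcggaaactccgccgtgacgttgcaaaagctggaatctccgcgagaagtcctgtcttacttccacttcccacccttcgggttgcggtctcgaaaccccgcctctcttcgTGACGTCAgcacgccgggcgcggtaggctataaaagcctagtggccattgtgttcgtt
PPP1R15B: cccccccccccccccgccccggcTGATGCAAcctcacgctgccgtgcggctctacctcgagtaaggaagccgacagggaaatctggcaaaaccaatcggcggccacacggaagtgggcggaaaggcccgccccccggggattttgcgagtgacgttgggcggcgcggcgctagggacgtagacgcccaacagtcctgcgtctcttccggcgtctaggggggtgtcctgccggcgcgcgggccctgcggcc

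The motifs were searched on both strands over 250 bases before and 50 bases after the start, and no 2 matches overlapped in a member. The core of the interferon-stimulated response element, GAAA, any 2 bases and GAAA, was found at the start of EIF2AK2, from 6 bases before to 4 bases past it, and in 3.65% of 27305 promoters. The RUNX motif TGTGGT lay 26 to 21 bases before the start of IMPACT, and 13.1% of all promoters held it. The cyclic AMP response element TGACGTCA, which reads the same on both strands, lay 58 to 51 bases before the start of PPP1R15A and was present in 1.98% of promoters. The C/EBP-ATF composite motif TGATGNAA lay 227 to 220 bases before the start of PPP1R15B and was present in 3.67% of promoters. These matches describe letters in the reference and are neither shown binding sites nor causes of any value below.

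The targeted gene was at least 2-fold lower on 1 of its probes, and the other probe of the same accession differed from it. The RUNX2 probe of NM_004348 with the larger change was 3.18-fold lower in cl-sh3 (log2 ratios -2.04 and -1.30 in hybridizations 1 and 2). The other probe of that accession had 0.17 and -0.13, and the probe of NM_001015051 had -0.29 and -0.17, with the control RNA not well above background in hybridization 2. The probe with the larger change was the brightest, with log2 signals of 11.48 and 10.94 in the control clone. The other probes were dimmer there, at 8.79 and 7.91, and at 8.01 and 7.38. The study reported lower RUNX2 mRNA and protein in cl-sh3 by RT-PCR and Western blot. Of the SKOV3 markers fixed for checking the cell label, all 9 were well above background. Probes of leukocyte, endothelial and fibroblast markers also passed that flag, apart from PECAM1 in the control RNA of hybridization 2, so the flag alone does not tell cell types apart. Of the SKOV3 markers, 6 were higher in cl-sh3 in both hybridizations (median log2 ratio of the list 0.34), among them KRT8, KRT18, KRT19 and EPCAM, and MUC16 at no more than 0.06. ERBB2 was the 1 marker lower in both by brightest probe, at -0.86 and -0.45, but its dimmer probe was higher, at 0.26 and 0.18. Among the markers, 0 were 2-fold changed. The markers of other cells gave mean log2 ratios between -0.15 and 0.18 in 7 measured genes. The part of these shifts in the values below was not tested, and in RNA of whole cultures a smaller share of cells with a transcript and less of it per cell cannot be told apart.

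All 14 probes of the members were well above background in both RNAs and both hybridizations. None of the 10 genes was at least 2-fold changed in the same direction in both hybridizations, the criterion for a changed gene here. Among 16153 genes with a detected probe, 0.136% were that far higher in cl-sh3 and 0.514% that far lower, so a count of 0 among 10 genes lay near the share in all genes. At 1.5-fold, EIF2S2 was the 1 member lower in both hybridizations, against 2.6% of all genes, and 0 members were higher, against 1.6%. Without regard to size, 3 members (EIF2AK2, EIF2AK3, EIF2AK4) were higher in both hybridizations and 5 (GCN1, PPP1R15A, PPP1R15B, EIF2S1, EIF2S2) were lower in both, where 30.9% and 28.4% of all genes were. EIF2AK1 and IMPACT changed sign between the hybridizations. The median log2 ratio of the members was -0.15, against 0.01 over all genes. It was -0.29 in hybridization 1 alone, -0.0452 in hybridization 2 alone and -0.0579 with median centring in place of loess.

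By the mean of the brightest probe, the kinases and the other members lay on different sides of 0. The mean log2 ratios of all 4 kinases were above 0, with a median of 0.31. Those of the 6 other members were below 0, with a median of -0.41. The dimmer probes of EIF2AK1 (mean -0.01) and EIF2S1 (mean 0.14) lay on the other side, and EIF2AK1 and IMPACT changed sign between the hybridizations. The split of the means held under each of 10 processing alternatives, but several of these left the members' values unchanged. In hybridization 2 alone only 3 kinases were above and 5 other members below 0. The split is a description of 10 genes in 1 pair of clones and was noticed in these values.

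**Figure D1:**
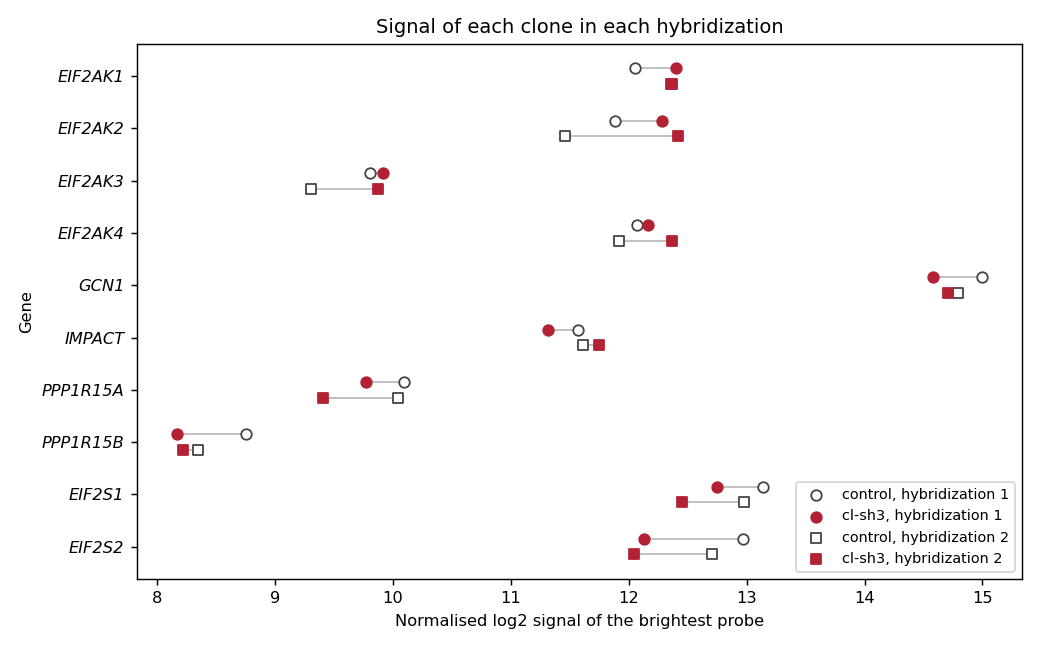
Normalised log2 signal of the brightest probe of each of the 10 genes (horizontal axis) in cl-sh3 (filled) and the control clone (open), with circles for hybridization 1 and squares for hybridization 2 and a grey line joining the clones of 1 hybridization. The filled symbol lies to the right in both hybridizations for EIF2AK2, EIF2AK3 and EIF2AK4, and the control symbol of EIF2AK1 in hybridization 2 is hidden behind the cl-sh3 symbol, both at 12.36.

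Among the kinases, EIF2AK2, which encodes PKR, stood farthest from equal levels. Its normalised log2 signal was 12.29 and 12.42 in cl-sh3 and 11.88 and 11.46 in the control clone (hybridizations 1 and 2). The cl-sh3 signal lay above the control signal of the same hybridization each time. The log2 ratios were 0.40 and 0.96, a mean of 0.68 or 1.61-fold higher, and 3.70% of all genes (597 of 16153) were at least as far up in both hybridizations. The second ratio lay just under 2-fold and the first well under it, and the gap of 0.56 between them was the widest of the 14 member probes.

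EIF2AK3, the endoplasmic reticulum kinase PERK, had log2 signals of 9.92 and 9.88 in cl-sh3 and of 9.81 and 9.31 in the control clone. The clones differed little in hybridization 1 (log2 ratio 0.11) and more in hybridization 2 (0.56), for a mean of 0.34 or 1.26-fold. EIF2AK4, which encodes the amino acid sensor GCN2, gave 12.17 and 12.37 in cl-sh3 and 12.07 and 11.92 in the control clone. Its log2 ratios of 0.10 and 0.45 (mean 0.27, 1.21-fold) repeated the order seen for EIF2AK3. At least as far up in both hybridizations were 16.2% of all genes for EIF2AK3 and 17.5% for EIF2AK4, so neither stood apart. These 2 genes and EIF2AK2 each had the larger ratio when cl-sh3 carried Cy3, and a dye effect on single probes was not tested.

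EIF2AK1, the haem-regulated kinase HRI, had log2 signals of 12.40 and 12.36 in cl-sh3 and of 12.05 and 12.36 in the control clone. The clones differed in hybridization 1 alone, with log2 ratios of 0.35 and -0.01. Its dimmer probe gave 0.18 and -0.19, a mean of -0.01. No direction can be given for EIF2AK1 on either probe.

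**Figure D2:**
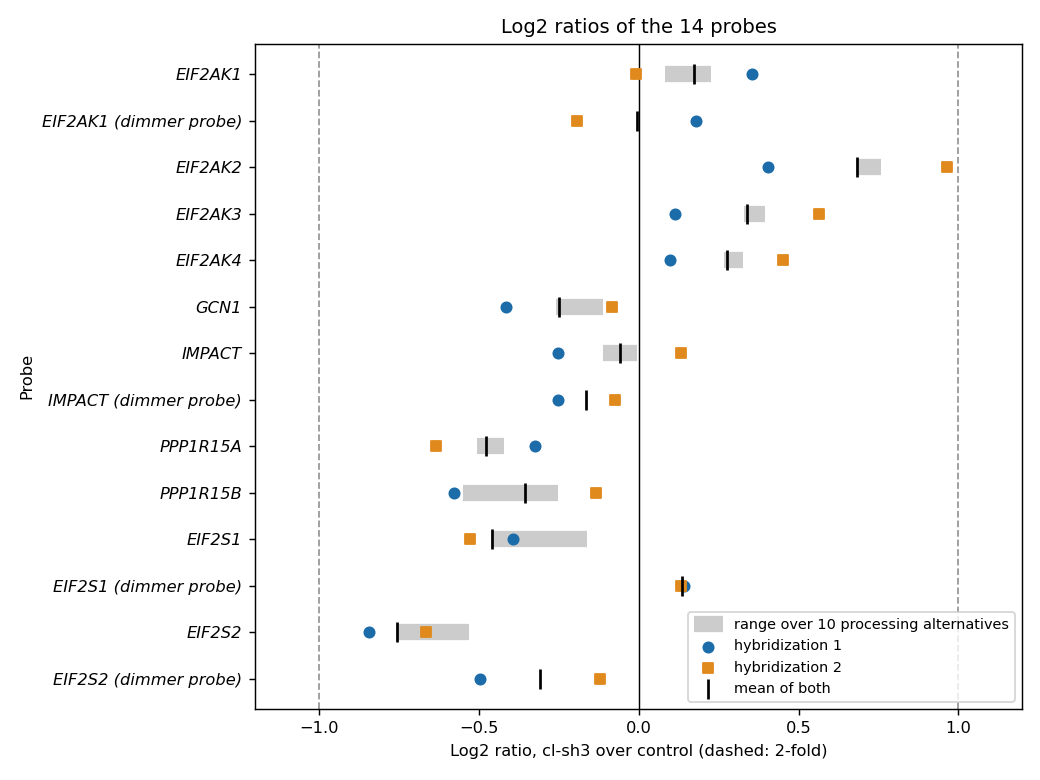
Log2 ratio of cl-sh3 over control (horizontal axis) for each of the 14 member probes in hybridization 1 (circles) and hybridization 2 (squares), with the mean as a black tick. Grey bars give the range of the gene's mean over 10 processing alternatives, and no point reaches the dashed 2-fold lines, although EIF2AK2 came to 0.96 in hybridization 2.

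GCN1 and IMPACT act on GCN2: GCN1 binds the ribosome and activates the kinase, and IMPACT competes with that activation. GCN1 had log2 signals of 14.58 and 14.71 in cl-sh3 and of 14.998 and 14.79 in the control clone. It was lower in cl-sh3 each time, at log2 ratios of -0.41 and -0.08 (mean -0.25, 1.19-fold lower), and 19.8% of all genes were at least as far down in both. IMPACT gave 11.32 and 11.75 in cl-sh3 and 11.57 and 11.61 in the control clone, so that the order of the clones turned between hybridizations. Its log2 ratios were -0.25 and 0.13 on this probe and -0.25 and -0.07 on the dimmer one. The mean of the brighter probe, -0.06, was smaller than its gap between hybridizations, 0.38. IMPACT is the member with the RUNX motif printed above.

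The phosphatase regulators were both lower in cl-sh3. PPP1R15A encodes GADD34, the inducible regulator whose gene is known to be switched on downstream of ATF4 and of CHOP (DDIT3). Its log2 signals were 9.77 and 9.41 in cl-sh3 and 10.09 and 10.04 in the control clone. The cl-sh3 signal lay below the control signal of the same hybridization each time. The log2 ratios were -0.32 and -0.63 (mean -0.48, 1.39-fold lower), and 7.55% of all genes were at least as far down in both hybridizations. PPP1R15B encodes CReP, the constitutive regulator, and had log2 signals of 8.17 and 8.22 in cl-sh3 and of 8.75 and 8.35 in the control clone. Its log2 ratios were -0.58 and -0.13 (mean -0.35, 1.28-fold lower), and 16.4% of all genes were at least as far down each time. Each gene had 1 probe, so no second probe bears on these values.

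EIF2S1 and EIF2S2 encode the alpha subunit of eIF2, which the kinases phosphorylate, and its beta subunit. On its brightest probe EIF2S2 had log2 signals of 12.13 and 12.04 in cl-sh3 and of 12.97 and 12.71 in the control clone. The cl-sh3 values lay well below the control values each time. At log2 ratios of -0.84 and -0.66 (mean -0.75, 1.69-fold lower), EIF2S2 was the member with the lowest mean, and 1.80% of all genes (291 of 16153) were at least as far down in both. The dimmer EIF2S2 probe also lay lower, at -0.49 and -0.12 (mean -0.31). The RefSeq table names 7 pseudogenes of EIF2S2 and 1 of EIF2AK1, and 1 to 2 each for EIF2S3, EIF5, BZW1 and PRKRA described below. Cross-hybridization with their transcripts was not tested.

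The probes of EIF2S1 pointed in opposite directions. The brighter probe gave log2 signals of 12.75 and 12.45 in cl-sh3 and of 13.14 and 12.98 in the control clone. Its log2 ratios were -0.39 and -0.53 (mean -0.46, 1.37-fold lower), and 5.78% of all genes were at least as far down in both. On the dimmer probe the signals were 10.58 and 10.21 in cl-sh3 and 10.43 and 10.08 in the control clone. That probe was slightly higher in cl-sh3 in both hybridizations, at 0.14 and 0.13. Both probes repeated closely between the hybridizations, with gaps of 0.14 and 0.01, so the disagreement between them was larger than either gap. With the mean of both probes the log2 ratio of EIF2S1 was -0.16.

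Across the 14 probes, 4 were higher and 7 lower in cl-sh3 in both hybridizations, where 29.8% and 27.3% of 36060 probes were. The gap between hybridizations had a median of 0.36 over the member probes, against 0.22 over all probes and 0.23 over the 27103 probes within the members' range of brightness. Within an array, spots of 256 probes that were printed 10 times had a median SD of 0.12 in hybridization 1 and of 0.11 in hybridization 2. Each member probe had 1 spot, so its spot error was not measured.

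The partners of eIF2 in its cycle were examined next: the gamma subunit EIF2S3, the subunits of the exchange factor eIF2B, EIF5, which stimulates GTP hydrolysis on eIF2, and factors that act with them. Of the 14 genes measured, 7 were lower in cl-sh3 in both hybridizations and 0 were higher in both, against 28.4% and 30.9% of all genes. The median log2 ratio of the list was -0.10, and it was -0.28 in hybridization 1 alone and -0.14 in hybridization 2 alone. None was 2-fold changed on its brightest probe. EIF5 had the lowest mean, -1.14, from log2 ratios of -0.95 and -1.33, and missed the 2-fold criterion by hybridization 1. Its other probes gave -0.83 and -0.61, and -1.15 and -0.82. EIF2S3, the partner of EIF2S1 and EIF2S2, had the highest mean, 0.08, but from ratios of -0.35 and 0.51 that opposed each other. The 5 eIF2B subunits had a median of -0.08.

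BZW1, which competes with EIF5 for eIF2, was lower on each of its 3 probes. The brightest gave -0.64 and -0.74, and another gave -1.28 and -1.40 and was 2-fold lower in both hybridizations. BZW1 was described because of its second probe, after its values were seen, and it is in the study's own list of changed genes.

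Other regulators of the kinases had a median log2 ratio of 0.07 over 13 measured genes, of which 6 were higher and 4 lower in both hybridizations. Among all genes, 30.9% were higher and 28.4% lower in both. PRKRA, which encodes the PKR activator PACT, was the 1 gene that met the 2-fold criterion, where 0.514% of all genes were that far lower. Its log2 signals were 12.37 and 12.10 in cl-sh3 and 13.56 and 13.36 in the control clone. The ratios of -1.18 and -1.25 (mean -1.22, 2.33-fold lower) repeated to within 0.07, and the gene met the criterion under all 10 processing alternatives. PRKRA is also in the study's own list, which was drawn from these arrays. HSPA5, the chaperone BiP that holds PERK inactive, had -1.04 and -0.98 on its brightest probe and 0.01 and -0.31 on the other, and was looked up after its values were seen. The highest mean of the list was that of DNAJC3, the inhibitor of PKR and PERK also called P58IPK, at 0.52 and 0.43 (mean 0.48, 1.39-fold higher). TARBP2, another inhibitor of PKR, had 0.51 and 0.05, and was named after its values were seen.

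PPP1R15A and PPP1R15B work by binding a catalytic subunit of protein phosphatase 1. Of the 3 catalytic subunits, none was 2-fold changed on its brightest probe, and their median was 0.09. PPP1CB had the lowest mean, with log2 ratios of -0.75 and -0.41 (mean -0.58), and all 4 of its probes were lower in both hybridizations. A dimmer PPP1CB probe was 2-fold lower in both, at -1.52 and -1.69. PPP1CB is also in the study's own list of changed genes, which was drawn from these arrays. PPP1CC had the highest mean, with 0.08 and 0.26 (mean 0.17), but its mean over 3 probes was -0.01.

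**Figure D3:**
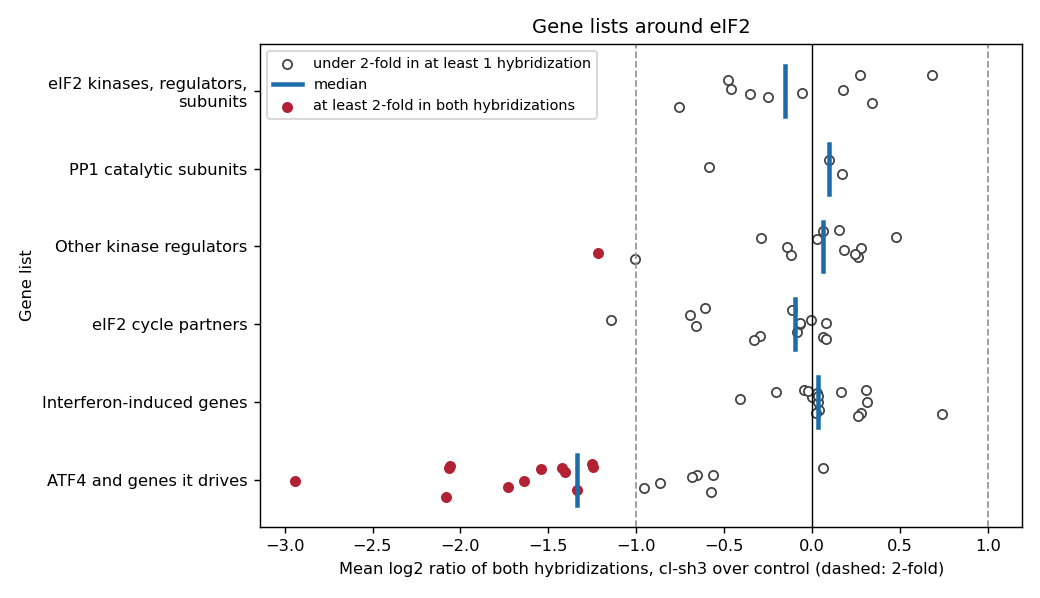
Mean log2 ratio of both hybridizations (horizontal axis) for the genes of each list, by brightest probe, with filled points for genes at least 2-fold changed in both hybridizations and a bar at each list's median. The members spread from -0.75 to 0.68 around a median of -0.15, while 12 of 19 genes of the ATF4 list lie beyond 2-fold lower.

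ATF4 and genes it is known to drive were far lower than the members. Of 19 measured genes, 18 were lower in cl-sh3 in both hybridizations and 12 were at least 2-fold lower, with a median log2 ratio of -1.34. Among all genes, 28.4% were lower in both and 0.514% at least 2-fold lower in both. The list was chosen with earlier results of these data known. The 12 were ATF4, DDIT3, ATF3, TRIB3, ASNS, DDIT4, NUPR1, CEBPB, PSAT1, PHGDH, CTH and PCK2. ATF4 itself had log2 ratios of -1.54 and -1.30 on its brightest probe, and a mean of -0.77 on the dimmer one. TRIB3, which is induced by ATF4 and CHOP, had a mean of -2.94 on its brightest probe, the lowest of the 16153 genes by that probe, but -0.99 on its other probe. The dimmer probes of CEBPB and PCK2 also differed less, with means of -0.06 and -0.79 against -1.34 and -2.06. ASNS, the asparagine synthetase, had -2.06 and -2.10. Of the list, 11 genes are in the study's own list of changed genes, which was drawn from these arrays and is no independent evidence. The other 8 had a median of -0.67. PPP1R15A, at -0.48, was not 2-fold changed, so its place above the 12 genes that met that criterion was fixed in advance. The means of the whole list ran from -2.94 to 0.06, and PPP1R15A lay within that range. The C/EBP-ATF composite motif shown for PPP1R15B was found in 4 of 18 promoters of this list, 22.2%. The cyclic AMP response element shown for PPP1R15A was found in 0 of the 18.

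**Figure D4:**
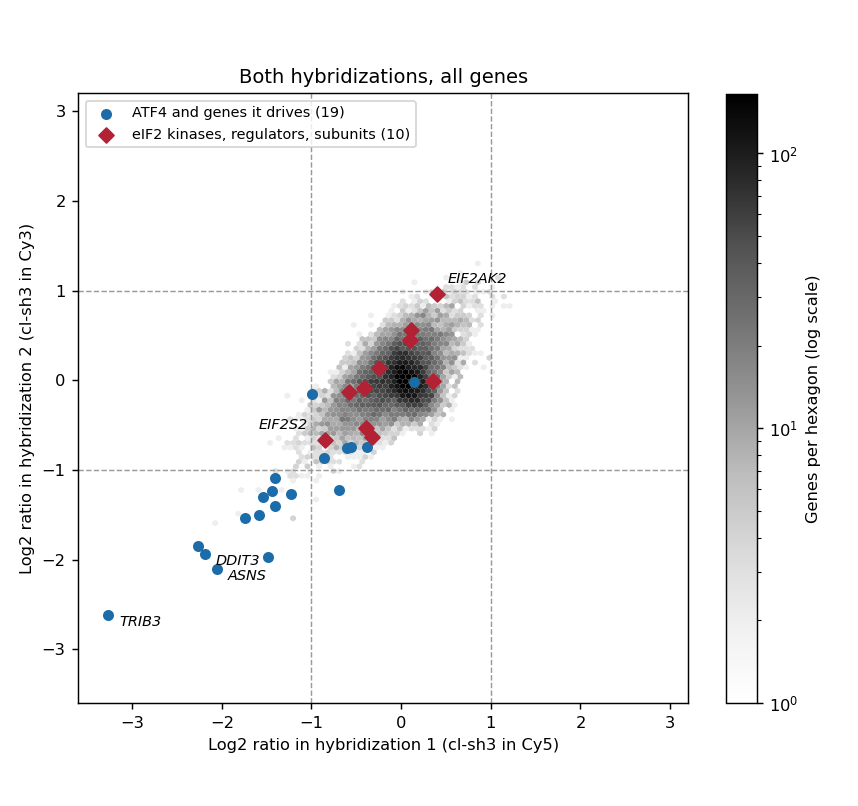
Log2 ratio in hybridization 1 (horizontal axis) against hybridization 2 (vertical axis) for 16153 genes by brightest probe (grey hexagons, shaded on a log scale by number of genes), with the 10 members as red diamonds and 19 genes of the ATF4 list as blue circles. The members lie within the dashed 2-fold lines, and 12 circles lie beyond both lower lines.

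EIF2AK2 is itself induced by interferon, and its promoter holds the response element core at the start. In the list of other interferon-induced genes, 8 of 13 promoters held that core (61.5%). Of 16 measured genes of this list, 5 were higher and 1 was lower in cl-sh3 in both hybridizations, 0 were 2-fold changed, and the median log2 ratio was 0.03. The share higher in both lay near the 30.9% of all genes. OAS3, an antiviral enzyme that makes oligoadenylates, had the highest mean, with 0.62 and 0.86 on its brightest probe and 0.13 and 0.33 on the dimmer one. IRF7 had the lowest, at -0.47 and -0.35 on its brightest probe. Its dimmer probe had 0.15 and -0.03, with the control RNA not well above background in hybridization 2. The mean of EIF2AK2, 0.68, thus lay near the top of the list and not near its median, and OAS3 was named after its values were seen, as was IRF7.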

How the data were processed

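RNA of both clones was labelled and hybridized together on 2 arrays with reversed dyes, counted as 1 replicate. The authors deposited the intensity of each of 45015 spots, not normalized, as read by Feature Extraction (10.5.1.1 per the file headers, 8.5.1.1 per the submitters' processing notes), and log10 ratios (Cy5 over Cy3) made by that software, also deposited as a table that equals them to within 0.00500. The plan named mean signals first and median signals where the files hold no mean, so median spot signals and median local backgrounds were used. The background was corrected with normexp (offset 50, limma 3.58.1, R 4.3.3), 1639 control spots were removed, 153 and 144 spots with outlier flags were set missing, and loess normalized each array. The offset draws ratios of dim probes towards 0. Deposited intensities were thus turned into log2 ratios of cl-sh3 over control, with the sign turned in the dye swap. Between 77.3% and 93.9% of spots per channel were well above background and 0 were saturated. Probes were kept (36065 of 41000) when at least 50% of the spots of at least 1 RNA were above background in both hybridizations, and 36060 of them had a ratio in both. The number of arrays limits the precision.

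Accessions were named through a RefSeq table (GRCh38.p14), which matched 18023 of 19228 RefSeq accessions. RUNX2's NM_004348 is not in it and took its name from the study's list. A gene was represented by its brightest kept probe, and other probes are given for the members and for some other genes. The rule for genes named in the text takes the members, RUNX2, list genes changed at least 2-fold, and the lowest and highest gene of the eIF2 partner, kinase regulator and catalytic subunit lists. BZW1, HSPA5, TARBP2, OAS3, IRF7, PECAM1, EPCAM, ERBB2, MUC16 and the keratins are named outside it, after their values were seen. The members and lists were chosen with earlier results of these data known. The steps were tested on simulated data: with 41000 probes drawn for cl-sh3 against control, all 200 probes given a change were found and 0 others were called. Those changes were set well beyond 2-fold and only in probes above background, so the simulation does not bear on smaller changes such as those of the members. The alternatives were no background correction, normexp with offset 0, median centring, Aquantile, flagged spots kept, no detection filter, both RNAs above background, the software's ratios, the deposited table, the mean of all probes, each hybridization alone and a 1.5-fold threshold. Both clones shared 1 slide, so no batch could be tested. Python 3.11.15, numpy 2.4.6, pandas 2.3.3 and matplotlib 3.10.9 were used. SLC3A2, IFI27 and COL1A1 had no matched probe and RSAD2 no kept one.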

Additional observations from a re-analysis of the deposited data

How the results depend on the processing

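Each of the 10 members kept the sign of its mean log2 ratio under the 10 processing alternatives. Among these, Aquantile and both changes of the detection filter left the members' values unchanged, and the deposited table nearly repeated the software's ratios. Of the members, 0 became 2-fold changed under any alternative or in a single hybridization. The widest ranges were those of EIF2S1, from -0.46 to -0.16, and PPP1R15B, from -0.55 to -0.25. With a 1.5-fold threshold 1 member (EIF2S2) was lower. Median centring moved the list medians of kinase regulators to 0.12, ATF4 genes to -1.19 and interferon-induced genes to 0.0942, and the number of probes 2-fold higher from 44 to 77. The software's ratios gave medians of 0.16 and 0.11 for kinase regulators and interferon-induced genes, with 253 probes 2-fold lower (against 142) and 103 higher. The deposited table gave 0.16, 0.11, 251 and 103 for the same values. With the mean of all probes the median of the catalytic subunits was -0.00955, ATF4 and CEBPB were no longer 2-fold lower, and PPP1CC changed sign. PHGDH was no longer 2-fold lower with the software's ratios or the deposited table. In single hybridizations the median ran from -0.28 to -0.14 for eIF2 partners, from 0.0023 to 0.0585 for kinase regulators, from -0.0531 to 0.0787 for catalytic subunits and from 0.0482 to 0.0747 for interferon-induced genes, and 196 to 506 probes were 2-fold lower and 88 to 219 higher. The causes were not tested. No paired analysis was possible because the hybridizations are 1 replicate and no test was made.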
